A study of Mus musculus with 12 samples.

Results

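The effect of dexamethasone on the early mRNA response to bacterial lipopolysaccharide was measured in RAW264, a mouse macrophage line, by comparing mRNA libraries of cells given LPS + DEX with mRNA libraries of cells given LPS. These are 4 of the 12 libraries of the study, 2 of each group. LPS + DEX cells received lipopolysaccharide at 100 ng/ml and dexamethasone at 10 µM for 30 min, LPS cells received lipopolysaccharide at 100 ng/ml for 30 min, and basal cells received neither. Cycloheximide at 100 µg/ml, which holds ribosomes on mRNA, was given to all of them before extraction. Each group was sequenced as poly(A) mRNA and as ribosome-protected fragments (footprints), in 2 independent biological replicates per assay. All samples come from a single cultured line, and none of the 12 libraries is of cells given dexamethasone without LPS, so the comparison describes dexamethasone added to LPS.

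Lipopolysaccharide is sensed by the receptor TLR4, whose adaptors activate NF-kB and the MAP kinases and so induce cytokines, chemokines, immediate early transcription factors and the feedback inhibitors that shut these pathways off again. Dexamethasone is a synthetic glucocorticoid. It enters the cell and binds the glucocorticoid receptor, which moves to the nucleus, switches on genes directly and, in macrophages, is known to restrain NF-kB and AP-1 driven inflammatory genes. Many of the directly induced genes encode proteins that dampen inflammatory signalling, such as phosphatases, ubiquitin editors and mRNA decay factors.

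The LPS + DEX mRNA libraries held 2529666 and 2256871 reads and the LPS libraries 1692014 and 2276336 reads, so that 3 reads were worth 1.19 to 1.77 CPM (read counts scaled to the total of a library). Spearman correlations across genes were 0.963 between the LPS + DEX replicates, 0.964 between the LPS replicates and 0.944 to 0.977 between libraries of the 2 groups. Of 15 macrophage markers, 13 were listed and tested, and Mrc1 and Mertk were not listed. The 13 summed to 6840 and 6512 CPM in LPS + DEX cells and to 6845 and 6545 CPM in LPS cells. By these 13 the macrophage label held in the 4 libraries. Cd68, a lysosomal macrophage protein, was at 991 and 854 CPM in LPS + DEX cells and at 989 and 937 CPM in LPS cells. Csf1r, the receptor of the macrophage growth factor, was at 1131 and 963 CPM in LPS + DEX cells and at 734 and 928 CPM in LPS cells. Of 23 markers of other cell types, 4 were listed and 2 of these, Col3a1 and Ddr1, were tested. The 2 summed to 79.85 and 63.36 CPM in LPS + DEX cells and to 50.24 and 56.23 CPM in LPS cells. Krt7 and Ren1 were not in the sum. Krt7, Ddr1 and Ren1 were at 4.83 CPM or less in all 4 libraries. Col3a1, a fibrillar collagen, made up most of the sum. It was at 75.1 and 61.6 CPM in LPS + DEX cells and at 46.7 and 51.4 CPM in LPS cells. Col3a1 was apart between the groups but short of a call (log2 0.47 ± 0.21 SE, limma adjusted p = 0.999). Its part in the other results was not tested. In basal replicate 1, the epithelial keratin Krt7 was at 1108 CPM, against 0 CPM in basal replicate 2, so basal values are given as levels and were kept out of the comparison of LPS + DEX with LPS. The scale is relative, and in such bulk samples fewer cells of a type and less RNA per cell cannot be told apart.

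With dexamethasone, 6 mRNAs rose and none fell among 9242 genes tested (0.0649% called higher and 0.0% called lower, limma-trend on log2(CPM + 1), Benjamini-Hochberg adjusted p under 0.05). They were Dusp1, Per1, Tnfaip3, Sdc4, Ccrl2 and B4galt4. The first 4 are known glucocorticoid-induced genes, and Tnfaip3, Sdc4 and Ccrl2 are also known targets of NF-kB. By unadjusted p under 0.05, 256 mRNAs were higher (2.77%) and 130 lower (1.41%), and limma-voom on the recovered reads likewise called 6 higher and 0 lower. The median log2 fold change over all genes tested was 0.02. With any of the 4 libraries left out, the log2 fold changes of all 6 stayed positive. The lowest was 1.10, for Ccrl2 without LPS replicate 1. Such a fit leaves 1 library in a group, so passing it was not taken as a check. Without LPS + DEX replicate 1 the SE of B4galt4 was 0.22, against 0.58 with all 4 libraries, though its LPS libraries were the same. Which library was left out moved the count itself: it was 62 without LPS replicate 2, 51 without LPS + DEX replicate 2, 15 without LPS + DEX replicate 1 and 5 without LPS replicate 1. When the basal libraries were fitted together with these 4, none of the 6 passed (limma adjusted p = 0.9996 for each). The SE then went from 0.18 to 0.47 for Dusp1 but only from 0.19 to 0.22 for Sdc4. Why the calls were lost was not tested. In that fit 183 genes had an unadjusted p under 0.05. The fold changes were the same, because they are differences of the same group means.

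Dusp1 encodes the phosphatase MKP-1, which removes the activating phosphates from p38, JNK and ERK. Its mRNA was at 441 and 483 CPM in LPS + DEX cells, against 41.4 and 54.9 CPM in LPS cells, and at 52.2 and 15.7 CPM in basal cells. The LPS libraries lay within or near the basal range and both LPS + DEX libraries lay far above them. Dusp1 rose 9.50-fold (log2 3.25 ± 0.18 SE, n = 2 each, limma adjusted p = 1.14e-08), and without either LPS library the log2 fold change was 3.05 or 3.45.

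Per1, a repressor of the circadian clock and a direct target of the glucocorticoid receptor in many cell types, was at 193 and 176 CPM in LPS + DEX cells, at 32.5 and 65.5 CPM in LPS cells and at 19.0 and 26.5 CPM in basal cells. The LPS + DEX libraries were close to each other, while LPS replicate 1 lay just above basal cells and LPS replicate 2 further up. Per1 rose 3.92-fold (log2 1.97 ± 0.25 SE, limma adjusted p = 0.0016). The log2 fold change was 1.48 without LPS replicate 1 and 2.47 without LPS replicate 2.

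Tnfaip3 encodes A20, the ubiquitin-editing enzyme that ends NF-kB signalling. It was at 273 and 302 CPM in LPS + DEX cells, at 57.3 and 117 CPM in LPS cells and at 9.49 and 13.5 CPM in basal cells, so both LPS libraries lay above basal and both LPS + DEX libraries above LPS. Tnfaip3 rose 3.47-fold (log2 1.80 ± 0.24 SE, limma adjusted p = 0.0019). Sdc4, a cell-surface heparan sulfate proteoglycan, showed the same order, with 245 and 206 CPM in LPS + DEX cells, 76.2 and 101 CPM in LPS cells and 21.0 and 28.7 CPM in basal cells. Sdc4 rose 2.54-fold (log2 1.34 ± 0.19 SE, limma adjusted p = 0.0026).

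Ccrl2, an atypical chemokine receptor that binds chemerin, was at 86.2 and 85.1 CPM in LPS + DEX cells, at 24.2 and 39.5 CPM in LPS cells and at 0.678 and 2.71 CPM in basal cells. Of the 6 mRNAs it had the least margin over the threshold, rising 2.71-fold (log2 1.44 ± 0.24 SE, limma adjusted p = 0.0208). Without LPS replicate 1 its log2 fold change was 1.10 and it did not pass (limma adjusted p = 0.315), nor did it pass with no filter on low values (limma adjusted p = 0.0729).

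B4galt4, a galactosyltransferase that extends sugar chains in the Golgi, had the largest fold change and the least even libraries. It was at 1908 and 1269 CPM in LPS + DEX cells, at 21.9 and 218 CPM in LPS cells, and at 0 and 152 CPM in basal cells. The LPS + DEX libraries stood above all others, but the replicates of LPS and of basal cells each differed widely. B4galt4 rose 22.01-fold (log2 4.46 ± 0.58 SE, limma adjusted p = 0.0016), with a log2 fold change of 2.83 without LPS replicate 1 and 6.09 without LPS replicate 2. In the footprint libraries it had at most 1.64 CPM in each of the 4 libraries of LPS + DEX and LPS cells, so it was not tested there. The files give 1 value per gene, so where on the gene the B4galt4 reads lie, and whether they cover its coding sequence, cannot be seen from them. It is not a member of any of the pathway lists described here.

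**Figure D1:**
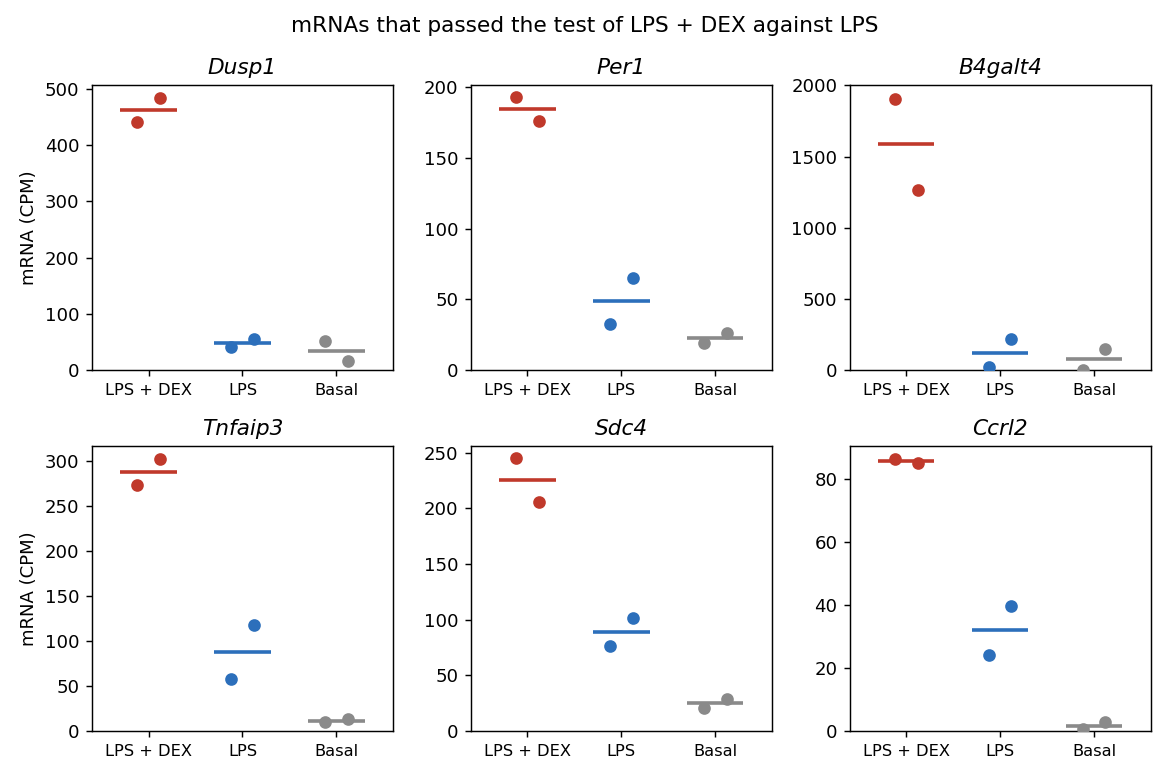
The 6 mRNAs that passed the test, in CPM on a linear axis from 0; each point is a library, the horizontal line is the mean of the 2 libraries, and LPS + DEX, LPS and basal stand from left to right. In all 6 panels both LPS + DEX points lie above both LPS points, from 441 and 483 CPM against 41.4 and 54.9 CPM for Dusp1 to 86.2 and 85.1 CPM against 24.2 and 39.5 CPM for Ccrl2.

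**Figure D2:**
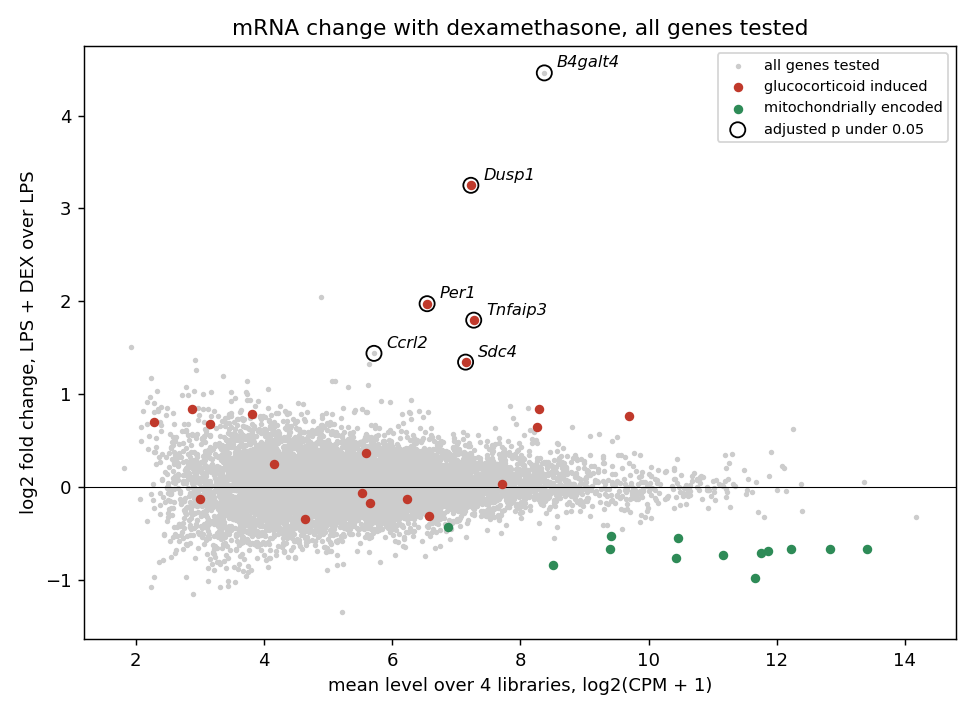
Log2 fold change of LPS + DEX over LPS (vertical axis) against the mean level over the 4 libraries as log2(CPM + 1) (horizontal axis) for the 9242 mRNAs tested. Glucocorticoid-induced genes are red, mitochondrially encoded genes green, and circles mark the 6 mRNAs with an adjusted p under 0.05, all above the line at 0.

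The 5 called mRNAs of the glucocorticoid and NF-kB lists (Dusp1, Per1, Tnfaip3, Sdc4, Ccrl2) rose together. Their promoters are shown to let the known response elements be looked for in the letters. The windows are the 250 bases upstream of the first listed RefSeq start of each gene (mouse build GRCm38.p6), written 5′ to 3′ on the gene's strand. They are Dusp1 at chr17:26508473-26508722 (minus strand), Per1 at chr11:69098699-69098948 (plus strand), Tnfaip3 at chr10:19015411-19015660 (minus strand), Sdc4 at chr2:164443189-164443438 (minus strand) and Ccrl2 at chr9:111057519-111057768 (minus strand). Capitals mark matches to 1 of 6 motifs on either strand.
Dusp1: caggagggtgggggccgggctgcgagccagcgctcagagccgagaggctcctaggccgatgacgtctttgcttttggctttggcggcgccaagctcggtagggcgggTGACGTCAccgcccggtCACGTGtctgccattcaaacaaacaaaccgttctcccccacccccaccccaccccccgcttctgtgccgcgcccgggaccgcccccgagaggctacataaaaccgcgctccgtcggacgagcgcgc
Per1: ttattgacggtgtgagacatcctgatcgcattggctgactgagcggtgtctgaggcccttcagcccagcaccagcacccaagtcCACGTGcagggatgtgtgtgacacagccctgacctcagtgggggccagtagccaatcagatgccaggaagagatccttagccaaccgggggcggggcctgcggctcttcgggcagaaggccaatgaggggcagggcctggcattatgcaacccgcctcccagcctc
Tnfaip3: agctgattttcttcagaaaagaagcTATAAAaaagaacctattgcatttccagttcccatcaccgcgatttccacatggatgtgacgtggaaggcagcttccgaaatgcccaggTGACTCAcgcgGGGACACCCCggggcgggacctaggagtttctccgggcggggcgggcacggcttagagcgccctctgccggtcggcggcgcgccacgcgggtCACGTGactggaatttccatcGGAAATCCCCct
Sdc4: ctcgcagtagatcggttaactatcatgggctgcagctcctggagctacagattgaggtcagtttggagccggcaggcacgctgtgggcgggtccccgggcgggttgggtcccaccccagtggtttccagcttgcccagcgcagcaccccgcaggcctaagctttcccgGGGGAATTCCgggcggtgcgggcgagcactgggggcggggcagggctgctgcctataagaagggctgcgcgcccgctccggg
Ccrl2: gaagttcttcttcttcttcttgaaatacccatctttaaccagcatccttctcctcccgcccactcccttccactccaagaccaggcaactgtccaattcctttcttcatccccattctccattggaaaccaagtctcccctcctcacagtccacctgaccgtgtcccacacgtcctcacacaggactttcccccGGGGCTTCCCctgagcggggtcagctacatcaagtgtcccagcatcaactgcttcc

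The palindromic glucocorticoid response element, searched as GNACA and TGTNC with NNN between them, had no match in these 5 windows and was present in 0.387% of all 32851 promoter windows of the same length. Receptor sites are known to lie mostly outside promoters, which these windows do not cover. The capitals in Dusp1 mark a cAMP response element, TGACGTCA (1.55% of windows), at -143 to -136 from the start and an E-box, CACGTG (6.02%), at -126 to -121. Per1 held an E-box at -166 to -161, the element that clock activators are known to bind. Matches to the kappaB consensus (3.9% of windows) were found in the windows shown of the 3 known NF-kB targets. They lay in Tnfaip3 at -125 to -116 and at -12 to -3, in Sdc4 at -82 to -73 and in Ccrl2 at -56 to -47. Such matches were not particular to called genes. Among LPS-response genes that did not pass, Nfkbia, Cxcl2, Cxcl3 and Fos held one, and Tnf, Jun, Junb and Atf3 did not. Tnfaip3 also held an AP-1 site, TGANTCA (6.75%), at -136 to -130, an E-box at -33 to -28 and a TATA box, TATAAA (12.4%), at -225 to -220. None of the marked matches overlap. Per1, Tnfaip3 and Ccrl2 have further RefSeq starts, and the windows upstream of those held no match to any of the 6 motifs. A match describes the letters and does not show that a factor was bound.

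Of 31 known glucocorticoid-induced genes, 20 were listed and tested. Of these, 4 rose and none fell, against 0.0649% and 0.0% of all genes tested. The list was drawn up with earlier results of these data known, so it is not an independent test. The libraries of the 2 groups did not overlap in 12 of the 20, all higher with dexamethasone, against 18.1% of all genes tested that were apart and higher and 13.2% that were apart and lower. Their median log2 fold change was 0.66, and 0.26 without LPS replicate 1. Beside Dusp1, Per1, Tnfaip3 and Sdc4, the 3 members with the smallest p did not pass. Nfkbia, the NF-kB inhibitor IkB-alpha, was at 1086 and 1077 CPM in LPS + DEX cells and at 514 and 793 CPM in LPS cells (log2 0.76 ± 0.18 SE, limma adjusted p = 0.471). Cebpb, a transcription factor of macrophage differentiation, was at 428 and 340 CPM in LPS + DEX cells and at 233 and 256 CPM in LPS cells (log2 0.64 ± 0.16 SE, limma adjusted p = 0.697). Zfp36, which encodes the mRNA decay factor tristetraprolin, was at 410 and 424 CPM in LPS + DEX cells, at 157 and 345 CPM in LPS cells, and at 31.9 and 13.0 CPM in basal cells. In these 3 genes both LPS + DEX libraries lay above both LPS libraries, and in each of them the lower LPS value came from replicate 1.

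Several of the most widely used glucocorticoid marker genes did not pass at this time point. Tsc22d3, which encodes the anti-inflammatory protein GILZ, was at 11.5 and 9.30 CPM in LPS + DEX cells, against 7.68 and 4.83 CPM in LPS cells (log2 0.67 ± 0.40 SE). Klf9, a transcription factor, was at 7.12 and 11.1 CPM in LPS + DEX cells and at 3.55 and 5.71 CPM in LPS cells (log2 0.84 ± 0.43 SE). Both mRNAs were apart between the groups and did not pass. Cry2, a clock repressor like Per1, was at 18.2 and 16.8 CPM in LPS + DEX cells and at 7.09 and 13.2 CPM in LPS cells (log2 0.79 ± 0.35 SE). Fkbp5, a co-chaperone that feeds back on the receptor, was at 45.5 and 43.0 CPM in LPS + DEX cells and at 51.4 and 41.7 CPM in LPS cells, so its groups overlapped (log2 -0.07 ± 0.22 SE). Sgk1 and Per2 are not among the listed genes.

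The receptor and its partners gave no call: 0 of 18 receptor, chaperone and cofactor genes passed in limma-trend. By unadjusted p, 1 was higher and 1 lower, against 2.77% and 1.41% of all genes tested. Their median log2 fold change was 0.13. The mRNA of the glucocorticoid receptor itself, Nr3c1, was at 13.4 and 16.8 CPM in LPS + DEX cells and at 11.8 and 18.5 CPM in LPS cells (log2 0.02 ± 0.33 SE). Its libraries overlapped fully, and the sign of so small a value turned under other scalings. Smarca4, the ATPase of the BAF remodelling complex that the receptor uses, was at 318 and 276 CPM in LPS + DEX cells and at 200.4 and 243 CPM in LPS cells. The corepressor Ncor1 was at 238 and 313 CPM in LPS + DEX cells and at 349 and 366 CPM in LPS cells. Neither passed after adjustment.

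**Figure D3:**
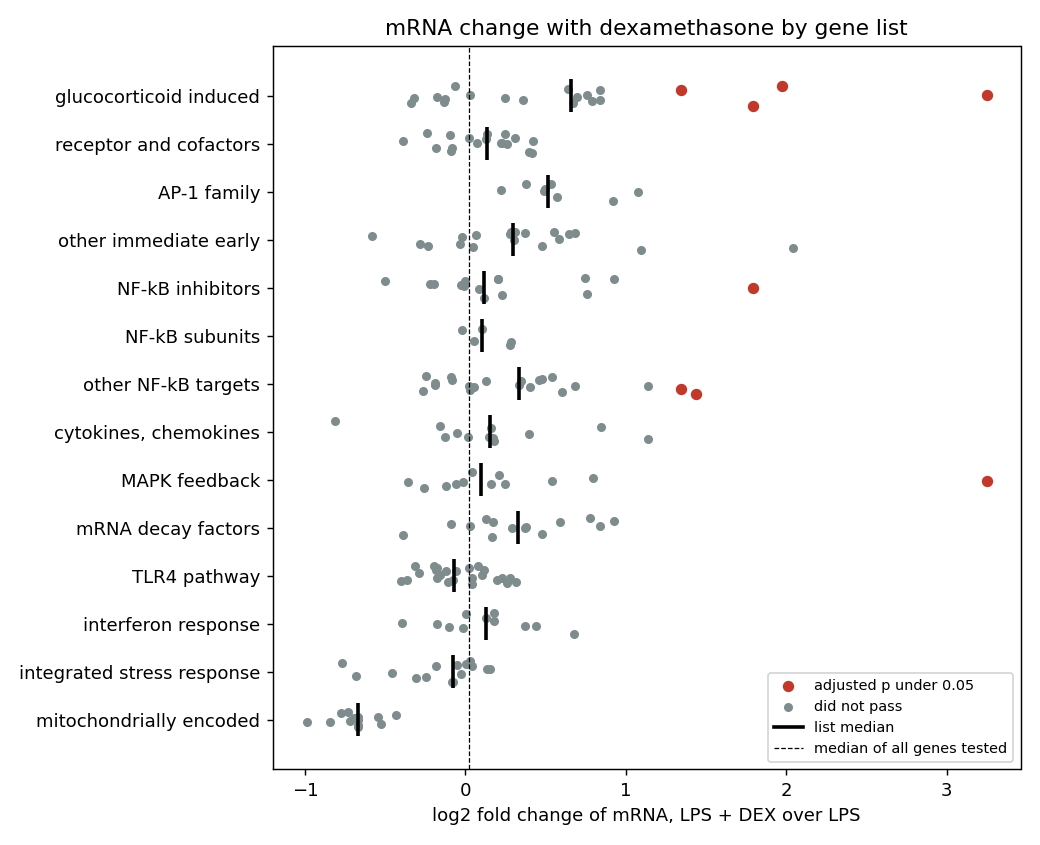
Log2 fold change of LPS + DEX over LPS for the tested members of 14 gene lists, 1 row a list; each dot is a gene, red where it passed, the black bar is the list's median and the dashed line the median of all genes tested. The called dots lie in the glucocorticoid-induced, NF-kB inhibitor, other NF-kB target and MAPK feedback rows, some in more than 1 row; the median of the glucocorticoid-induced row is 0.66 and that of the mitochondrially encoded row is -0.67.

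In the list of NF-kB inhibitors, 1 of 15 tested genes rose, Tnfaip3, and none fell, against 0.0649% and 0.0% of all genes tested. The list is not limited to feedback inhibitors, as it also holds the atypical IkB gene Nfkbiz. Of the 15, 5 were apart and higher and 0 apart and lower, against 18.1% and 13.2% of all genes tested. The median log2 fold change was 0.12. Nfkbiz, an atypical IkB that acts in the nucleus as a coactivator, was at 295 and 317 CPM in LPS + DEX cells, at 120 and 276 CPM in LPS cells and at 9.49 and 13.5 CPM in basal cells. Zc3h12a, the ribonuclease Regnase-1 that degrades cytokine mRNAs, was at 79.9 and 74.0 CPM in LPS + DEX cells and at 31.3 and 51.0 CPM in LPS cells. Both were apart and neither passed (limma adjusted p = 0.999 and 0.697). The 5 NF-kB subunits gave 0 calls and 0 members with an unadjusted p under 0.05. Rela was at 108 and 83.3 CPM in LPS + DEX cells and at 88.7 and 94.5 CPM in LPS cells, with overlapping groups.

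Other NF-kB targets gave 2 calls of 21 tested, Sdc4 and Ccrl2, both higher, against 0.0649% of all genes tested called higher. Of the 21, 9 were apart and higher and 2 apart and lower, against 18.1% and 13.2% of all genes tested. The median log2 fold change was 0.33 (0.08 without LPS replicate 1). Cd83, a surface protein of activated antigen-presenting cells, was at 39.5 and 63.4 CPM in LPS + DEX cells and at 15.96 and 30.8 CPM in LPS cells (log2 1.14 ± 0.31 SE, limma adjusted p = 0.781). The receptor Tlr2 was at 427 and 474 CPM in LPS + DEX cells and at 294 and 354 CPM in LPS cells (log2 0.48 ± 0.16 SE). Ptgs2, which encodes the prostaglandin-forming enzyme COX-2, was at 17.8 and 19.9 CPM in LPS + DEX cells and at 20.1 and 23.3 CPM in LPS cells, and is 1 of the 2 members apart and lower (log2 -0.19 ± 0.28 SE). Nos2, the inducible nitric oxide synthase, was at 7.91 and 7.09 CPM in LPS + DEX cells, at 5.91 and 3.51 CPM in LPS cells and at 5.42 and 4.87 CPM in basal cells. All of these are low values and the gene did not pass.

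No cytokine or chemokine mRNA passed in either direction. Of 12 tested with limma-trend, 3 were higher and 1 lower by unadjusted p under 0.05, against 2.77% and 1.41% of all genes tested. The median log2 fold change was 0.15. Tnf, the main early cytokine of macrophages, was at 1486 and 1152 CPM in LPS + DEX cells, at 950 and 1419 CPM in LPS cells and at 80.0 and 87.7 CPM in basal cells. The LPS + DEX and LPS libraries overlapped (log2 0.17 ± 0.18 SE), and the value turned to -0.12 without LPS replicate 1. The chemokine Ccl3 was at 324 and 299 CPM in LPS + DEX cells and at 307 and 246 CPM in LPS cells. Ccl4 was at 329 and 259 CPM in LPS + DEX cells and at 281 and 247 CPM in LPS cells, again with overlapping groups. The neutrophil chemokines Cxcl2 and Cxcl3 were apart between the groups. Cxcl2 was at 390.2 and 355 CPM in LPS + DEX cells, at 171 and 250 CPM in LPS cells and at 2.71 and 12.5 CPM in basal cells (log2 0.85 ± 0.18 SE, limma adjusted p = 0.241). Cxcl3 was at 49.4 and 47.9 CPM in LPS + DEX cells and at 14.8 and 31.2 CPM in LPS cells (log2 1.14 ± 0.30 SE, limma adjusted p = 0.698). Il1rn, the interleukin 1 receptor antagonist, was the member with an unadjusted p under 0.05 on the lower side, at 47.4 and 36.3 CPM in LPS + DEX cells and at 113 and 47.9 CPM in LPS cells (log2 -0.81 ± 0.30 SE, limma adjusted p = 0.999). Its log2 fold change was -0.20 without LPS replicate 1, the high library.

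All 8 AP-1 family members tested had a positive log2 fold change, from 0.22 to 1.08 with a median of 0.52 (0.20 without LPS replicate 1), yet none passed in limma-trend. By unadjusted p, 5 were higher and 0 lower, against 2.77% and 1.41% of all genes tested. The groups were apart and higher in 6, against 18.1% of all genes tested. Fos was at 53.0 and 61.1 CPM in LPS + DEX cells, at 18.9 and 36.9 CPM in LPS cells and at 3.39 and 4.33 CPM in basal cells (log2 1.08 ± 0.28 SE, limma adjusted p = 0.698; 0.61 without LPS replicate 1). Jun was at 262 and 267 CPM in LPS + DEX cells and at 136 and 258 CPM in LPS cells, so that LPS replicate 2 nearly reached the LPS + DEX libraries. Junb was at 958 and 807 CPM in LPS + DEX cells and at 410.2 and 896 CPM in LPS cells, with overlapping groups. In all 8 members LPS replicate 1 lay below LPS replicate 2, against 54.5% of all genes tested.

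The other immediate early genes gave 0 calls of 20 tested, with a median log2 fold change of 0.30 (-0.08 without LPS replicate 1). By unadjusted p, 4 were higher and 1 lower, against 2.77% and 1.41% of all genes tested. Of the 20, 6 were apart and higher and 1 apart and lower, against 18.1% and 13.2% of all genes tested. Nr4a1, an orphan nuclear receptor, was at 53.8 and 64.7 CPM in LPS + DEX cells, at 4.73 and 36.02 CPM in LPS cells and at 7.46 and 2.17 CPM in basal cells. Its log2 fold change of 2.04 ± 0.52 SE (limma adjusted p = 0.697) was 0.70 without LPS replicate 1 and 3.39 without LPS replicate 2. Plk3, a stress-responsive kinase, was at 83.0 and 61.1 CPM in LPS + DEX cells and at 24.8 and 43.5 CPM in LPS cells (log2 1.09 ± 0.26 SE, limma adjusted p = 0.529). Ier2 was at 591 and 529 CPM in LPS + DEX cells and at 235 and 543 CPM in LPS cells. Ier3 was at 201 and 147 CPM in LPS + DEX cells and at 140 and 198 CPM in LPS cells. Egr2 was at 28.1 and 39.0 CPM in LPS + DEX cells and at 12.4 and 37.8 CPM in LPS cells. These 3 overlapped, with LPS replicate 2 inside or near the range of the LPS + DEX libraries. LPS replicate 1 lay below LPS replicate 2 in 18 of the 20 members.

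Of 12 tested genes of the MAPK feedback list, Dusp1 rose and no other passed, against 0.0649% of all genes tested called higher. The list also holds Map3k8 and Mapkapk2, which are kinases of the cascade. Dusp2, a nuclear phosphatase of the same family, was at 101 and 101 CPM in LPS + DEX cells and at 42.6 and 78.2 CPM in LPS cells (log2 0.80 ± 0.24 SE, limma adjusted p = 0.999). By unadjusted p under 0.05, 2 of the 12 were higher and 0 lower, against 2.77% and 1.41% of all genes tested. The median log2 fold change was 0.10. Among 14 mRNA decay factors 0 passed in limma-trend, and the median log2 fold change was 0.33 (0.19 without LPS replicate 1). Of the 14, 6 were apart and higher and 0 apart and lower, against 18.1% and 13.2% of all genes tested. By unadjusted p, 4 were higher and 0 lower, against 2.77% and 1.41% of all genes tested. The 4 were Zfp36, Zc3h12a, Zfp36l1 and Zfp36l2. Zfp36l2 was at 162 and 176 CPM in LPS + DEX cells and at 95.7 and 130.5 CPM in LPS cells. Zfp36l1 was at 31.2 and 47.0 CPM in LPS + DEX cells and at 15.4 and 31.2 CPM in LPS cells.

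Over the 5 lists of LPS-response genes together (cytokines, NF-kB inhibitors, other NF-kB targets, AP-1 and other immediate early genes; 76 tested), 3 rose and none fell, against 0.0649% and 0.0% of all genes tested. Of the 76, 29 were apart and higher and 4 apart and lower, against 18.1% and 13.2% of all genes tested. The median log2 fold change was 0.25. It was 0.08 without LPS replicate 1 and 0.41 without LPS replicate 2. LPS replicate 1 lay below LPS replicate 2 in 56 of the 76 (73.7%), against 54.5% of all genes tested. Their summed level was 12210 and 10930 CPM in the LPS + DEX libraries and 7417 and 10460 CPM in the LPS libraries. The part of LPS replicate 1 in these differences was not tested beyond these values. On none of the lists but among the 12 highest by the naming rule were Arc and Slfn2. Arc, a cytoskeleton-associated protein best known from neurons, was at 83.4 and 73.1 CPM in LPS + DEX cells and at 21.9 and 42.6 CPM in LPS cells (log2 1.32 ± 0.27 SE, limma adjusted p = 0.149). Slfn2, a Schlafen family protein of immune cells, was at 119 and 106 CPM in LPS + DEX cells and at 62.6 and 63.7 CPM in LPS cells (log2 0.82 ± 0.19 SE, limma adjusted p = 0.45). Its LPS replicates were nearly equal.

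**Figure D4:**
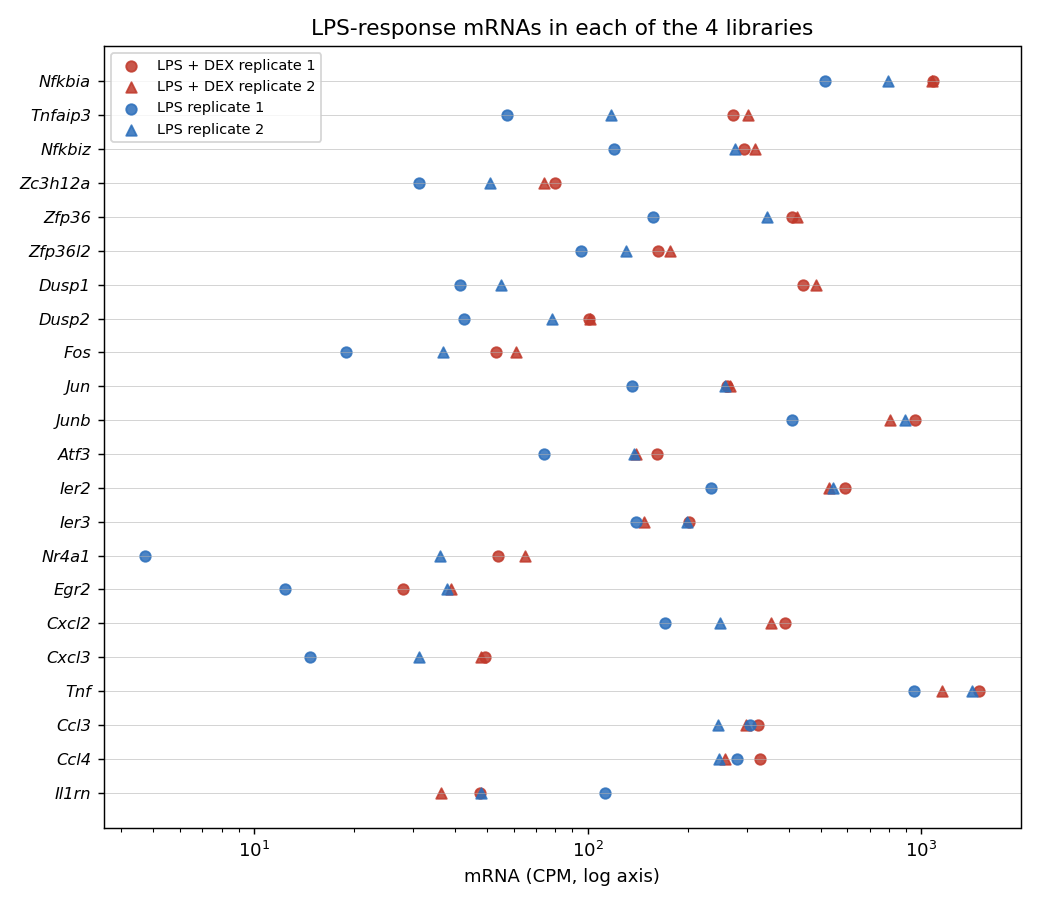
mRNA level of 22 LPS-response and feedback genes in each of the 4 libraries, in CPM on a log axis; red marks LPS + DEX and blue marks LPS, circles replicate 1 and triangles replicate 2. For most genes the blue circle (LPS replicate 1) is the lowest mark, and the blue triangle lies between it and the red marks or, as for Jun at 258 CPM against 262 and 267 CPM, close to them.

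The pathway that detects LPS gave no call. Of 24 tested TLR4 pathway genes, 0 passed in limma-trend and 0 had an unadjusted p under 0.05, with a median log2 fold change of -0.07. Tlr4 was at 16.6 and 27.9 CPM in LPS + DEX cells and at 24.2 and 25.0 CPM in LPS cells. The co-receptor Cd14 was at 1178 and 1020.0 CPM in LPS + DEX cells and at 1027 and 999 CPM in LPS cells. Interferon-response genes (0 of 11 called, median 0.13), integrated stress response genes (0 of 15, median -0.08), cholesterol synthesis genes (0 of 18, median 0.21) and macrophage markers (0 of 13, median -0.07) gave no call either. By unadjusted p under 0.05 these 4 lists had 1, 0, 1 and 1 member higher and 0, 1, 0 and 0 lower. Over all genes tested the shares were 2.77% higher and 1.41% lower. The same held for the 85 ribosomal protein genes (median -0.03), the 76 nuclear genes of oxidative phosphorylation (median -0.07) and 22 replication histones (median 0.18), with 0 calls each and 0, 0 and 2 members higher and 1, 3 and 0 lower by unadjusted p. Of the 18 cholesterol synthesis genes, 7 were apart and higher and 1 apart and lower. Over all genes tested these shares were 18.1% and 13.2%. Ribosomal protein genes had 4 apart and higher and 21 apart and lower, and oxidative phosphorylation genes 3 and 22. Interferon-response genes had 2 and 1, integrated stress response genes 0 and 5, and macrophage markers 2 and 3. TLR4 pathway genes had 2 and 2, and histones 4 and 1.

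On the lower side no mRNA passed. The 13 mitochondrially encoded mRNAs, which code for subunits of the respiratory chain, all had a negative log2 fold change, from -0.99 to -0.43 with a median of -0.67. An unadjusted p under 0.05 was reached by 12 of them, against 1.41% of all genes tested that were lower. Their summed level was 23010 and 43330 CPM in the LPS + DEX libraries and 62850 and 42100 CPM in the LPS libraries, so LPS + DEX replicate 2 lay beside LPS replicate 2. mt-Nd1, a complex I subunit, was at 1588 and 3323 CPM in LPS + DEX cells, at 5332 and 3897 CPM in LPS cells, and at 5071 and 6769 CPM in basal cells (log2 -0.99 ± 0.24 SE, limma adjusted p = 0.595). Of the 13, 2 were apart and lower (mt-Nd1 and mt-Nd3), against 13.2% of all genes tested. By this measure the list was near the share of all genes. The list's median was -0.24 without LPS + DEX replicate 1 and -0.37 without LPS replicate 1. Among the other genes named on the lower side, the mitochondrial fission factor Mff was at 58.5 and 58.9 CPM in LPS + DEX cells and at 94.0 and 80.4 CPM in LPS cells (log2 -0.56 ± 0.20 SE, limma adjusted p = 0.999). Gm17387, a predicted gene, was at 22.1 and 22.6 CPM in LPS + DEX cells and at 108 and 31.6 CPM in LPS cells (log2 -1.35 ± 0.38 SE, limma adjusted p = 0.89), and its log2 fold change was -0.48 without LPS replicate 1, the high library.

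The same contrast was available in footprint libraries, which are separate libraries with reads of ribosome-bound fragments. They held 1653342 and 1833560 reads in LPS + DEX cells and 829415 and 821946 reads in LPS cells, so depth differed with the treatment. There, 416 of 8559 genes tested rose (4.86%) and 462 fell (5.4%) by limma-trend. What the difference in depth adds to these calls was not tested. Of the 6 called mRNAs, 5 were tested in footprints and 2 of them rose there too. Dusp1 footprints were at 223 and 221 CPM in LPS + DEX cells and at 16.9 and 18.2 CPM in LPS cells (log2 3.59 ± 0.17 SE, limma adjusted p = 3.46e-13). Tnfaip3 footprints were at 107 and 88.9 CPM in LPS + DEX cells and at 38.6 and 45.0 CPM in LPS cells (log2 1.21 ± 0.18 SE, limma adjusted p = 4.53e-05). Sdc4 footprints were at 161 and 130.3 CPM in LPS + DEX cells and at 143 and 146 CPM in LPS cells, with overlapping groups (log2 0.00 ± 0.13 SE). Per1 footprints were at 53.2 and 36.5 CPM in LPS + DEX cells and at 27.7 and 34.1 CPM in LPS cells (log2 0.51 ± 0.24 SE, limma adjusted p = 0.202). Those of Ccrl2 were at 27.2 and 21.3 CPM in LPS + DEX cells and at 12.1 and 13.4 CPM in LPS cells (log2 0.87 ± 0.32 SE, limma adjusted p = 0.0931). Both were apart, as were 27.0% of genes tested in footprints that were apart and higher, and neither passed.

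Several genes that missed the threshold in mRNA passed in footprints in the same direction. Nfkbia (log2 0.71 ± 0.08 SE, limma adjusted p = 5.5e-07), Zfp36 (log2 1.13 ± 0.14 SE, limma adjusted p = 3.51e-06) and Dusp2 (log2 1.31 ± 0.25 SE, limma adjusted p = 0.00104) rose in footprints, and so did Nfkbiz, Fos, Jun and Nr4a1. The LPS replicates were closer to each other in footprints than in mRNA in these genes other than Nr4a1. Nr4a1 footprints were at 11.5 and 8.18 CPM in LPS + DEX cells and at 3.62 and 0 CPM in LPS cells. Only its LPS + DEX libraries reached the filter of 10 reads at median depth. Nr4a1 thus entered the footprint test through the group where it is high, and its call there is no support for its mRNA value. Footprints of Tsc22d3 were at 6.65 and 7.64 CPM in LPS + DEX cells and at 2.41 and 2.43 CPM in LPS cells and were too low for the test.

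Other genes had footprint values of another size or sign than their mRNA values, which had not passed. Cxcl2 footprints were at 284 and 162 CPM in LPS + DEX cells and at 225 and 226 CPM in LPS cells (log2 -0.07 ± 0.16 SE). Tnf footprints fell, at 1057 and 813 CPM in LPS + DEX cells and 1267 and 1263 CPM in LPS cells (log2 -0.45 ± 0.09 SE, limma adjusted p = 0.00104). Cebpb footprints fell as well (log2 -0.43 ± 0.11 SE, limma adjusted p = 0.0116). Il1rn footprints were at 64.1 and 55.6 CPM in LPS + DEX cells and at 188 and 192 CPM in LPS cells and fell (log2 -1.65 ± 0.14 SE, limma adjusted p = 9.89e-09). Footprints of mt-Nd1 fell (log2 -2.76 ± 0.16 SE, limma adjusted p = 1.91e-11). So did those of Nos2 (log2 -3.18 ± 0.40 SE, limma adjusted p = 5.78e-06). Whether Nos2, a low mRNA, entered the footprint test only through the LPS libraries was not tested. No weight is put on that call. The difference between the mRNA and the footprint change was not tested here for any of these genes.

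**Figure D5:**
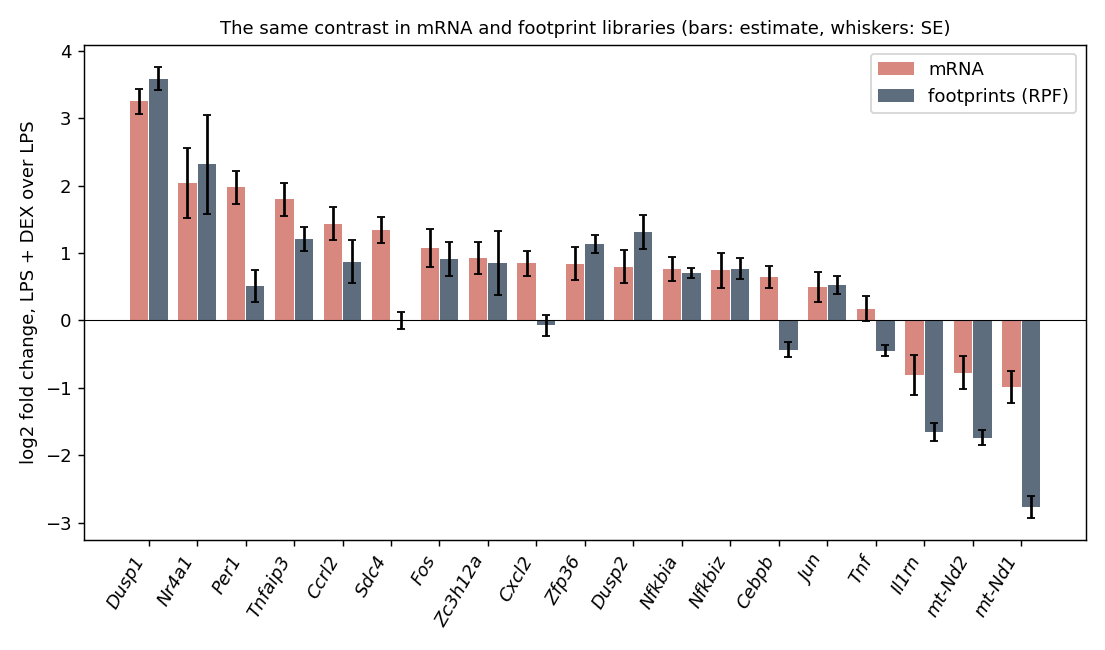
Log2 fold change of LPS + DEX over LPS in mRNA (light red) and footprint (dark) libraries for 19 genes. They run from high to low mRNA value, except that Il1rn stands before mt-Nd2. Bars start at 0 and whiskers are ± 1 SE from limma, with 2 libraries per group. Dusp1 has long bars in both assays (3.25 and 3.59), Sdc4 has an mRNA bar of 1.34 with a footprint value of 0.00, and Il1rn and mt-Nd1 have footprint bars at -1.65 and -2.76.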

How the data were processed

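Poly(A) mRNA and ribosome-protected fragments of RAW264 cells were sequenced on an Ion PGM, per the labels' protocols. The values deposited by the authors are CPM plus 1 per Ensembl gene and library, as read from the values: after subtracting 1, 100% of them were whole multiples of 1 read (tolerance 0.1 read). They are not scaled by gene length. The sources used here do not give the aligner, the genome build or the annotation. Symbols matched 9521 of 9621 identifiers. Whether counting used strand is not stated.

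The 2 LPS + DEX and 2 LPS mRNA libraries were fitted on their own with limma-trend (R 4.3.3, limma 3.58.1) on log2(CPM + 1), two-sided, with Benjamini-Hochberg adjustment over all genes that passed a filter (in 2 or more libraries the equivalent of 10 reads at median depth, and 15 reads over the 4). The 4 footprint libraries were fitted likewise. Folds are on the log2(CPM + 1) scale, which understates changes of low genes. SE is limma's moderated standard error. Each adjusted p rests on 2 replicates a group. Limits set by reads cover counting error only.

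Members and lists were chosen with earlier results of these data known. Named genes were a fixed set of LPS and glucocorticoid genes, the 12 highest and 12 lowest of the genes apart between the groups (called genes first, then by p, with 30 reads in the higher group), and in each list the 4 genes of smallest p. Genes outside this rule were chosen after their values were seen. Alternatives were other scalings, pseudocounts, filters, limma-voom on the recovered reads, a replicate block, a fit with the basal libraries, and each library left out.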

Additional observations from a re-analysis of the deposited data

How the results depend on the processing

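The 6 mRNA calls were also made, as the same 6 genes, with median-of-ratios and TMM scaling, log2(CPM + 2), log2(CPM + 5), a filter of 50 reads and limma-voom; with no filter on low values 5 remained, without Ccrl2. With the 6 mRNA libraries fitted together the count was 0. With the replicate number as a block it was 16 (12 higher, 4 lower), all 6 kept. Same-numbered libraries share no stated batch, and the correlation of their deviations was -0.184 in mRNA and -0.02 in footprints. For mRNA the crossed pairing, chosen after seeing the data, gave 21 calls (13 higher, 8 lower). Leaving out 1 library gave 5 to 62 calls: 5 without LPS replicate 1, 62 without LPS replicate 2 (52 higher, 10 lower), 15 and 51 without LPS + DEX replicate 1 and 2. The causes were not tested. The 878 footprint calls became 128 with no filter, 1058 with the block and 468 to 1171 with 1 library left out.

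Some fold changes of uncalled genes turned sign: Nr3c1 at -0.002, -0.003 and -0.026 with median-of-ratios, TMM and voom, and Fkbp5, Nr3c1, Tnf, Ccl4, Junb, Ier3, Egr2, Tlr4 and Rela with a library left out. Junb and Egr2 were not near 0 in the main comparison (0.54 and 0.58) and turned without LPS replicate 1. Over the 4 such fits Fkbp5 ran from -0.214 to 0.081, Nr3c1 from -0.277 to 0.324, Tnf from -0.117 to 0.462, Ccl4 from -0.025 to 0.318, Junb from -0.027 to 1.098, Ier3 from -0.202 to 0.295, Egr2 from -0.186 to 1.346, Tlr4 from -0.542 to 0.174 and Rela from -0.134 to 0.236. Planned count-model tests were not run: the deposited values are CPM plus 1, and limma-voom was run in their place on the reads recovered from them. Of low mRNAs, Tsc22d3, Klf9 and Nos2, at 3.51 to 11.5 CPM, had SEs of 0.40 to 0.44. What depth adds to these errors was not tested.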
